A study of Mus musculus with 12 samples.

Results

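Integrin beta subunits and leukocyte integrin alpha subunits are represented here by 9 mouse genes, Itgb1, Itgb2, Itgb5, Itgb7, Itgal, Itgam, Itgav, Itgae and Itgax, of 18194 genes named on the arrays. Every probe set annotated with 1 of these symbols and no other was taken, which gave 23 probe sets of 45137, 19 on the Affymetrix design MOE430A and 4 on MOE430B. The samples were bone marrow stem cells sorted by flow cytometry, 3 CD49+ and 3 CD49-, where CD49 is the name given to the surface proteins of Itga1 to Itga6. Each sample held about 30 cells with an estimated purity of 97.03%, was lysed 0 h after the sort, amplified by PCR and hybridised to both designs, which gave 12 arrays. Replicate 1 of each group carries the title prefix MZ1484, and replicates 2 and 3 carry MZ1468, so that each submission held both sorts (2 MZ1484 and 4 MZ1468 samples). The labels used here give no strain or age, name no stained alpha subunit, and do not state whether samples of 1 sort shared an animal. The p-values below therefore describe the spread between the 6 samples, some or all of which may be technical.

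An integrin is a pair of 1 alpha and 1 beta subunit, each spanning the cell membrane, and the pair decides which ligand is bound. Itgb2 encodes CD18, which pairs with the products of Itgal (LFA-1), Itgam (Mac-1) and Itgax (CD11c) and is made by leukocytes, which use these receptors to hold on to ICAM proteins of other cells. Itgb7 pairs with the products of Itga4 and Itgae, and is known for lymphocyte homing to the gut. Itgb1 is the partner of all the alpha subunits that the name CD49 covers, and anchors haematopoietic stem cells in the marrow, among others through its pair with Itga4. Itgav pairs with Itgb1, Itgb3, Itgb5, Itgb6 and Itgb8 and binds vitronectin, fibronectin and latent TGF-beta.

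The genes lie apart on the genome, with the exception of the leukocyte alpha subunits on chromosome 7. In the RefSeq annotation of GRCm38.p6, Itgal lies at chr7:127296139-127335137, Itgam at chr7:128062640-128118491 and Itgax at chr7:128129526-128150657. The arrays gave 1 signal per probe set and no position within a gene. No sequence is shown, since the probe and protein sequences were not used here.

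Signals were compared with the highest Bacillus control signal of the same array, called the bound here, because mouse cells lack the Bacillus transcripts. The bound was 78.0 to 149 signal units on MOE430A and 844 to 1466 on MOE430B. Of all named and unnamed probe sets, 39.5% to 61.1% lay above it on MOE430A and 16.5% to 28.6% on MOE430B. On both designs the mean bound was higher in CD49+ samples (111 against 85.3 in CD49- samples on MOE430A, 1330 against 947 on MOE430B). The ratio of the 3′ to the 5′ control probe set of Gapdh, a sign of RNA length, ran from 13.9 to 1146 between the MOE430A arrays, and that of Actb from 2.63 to 19.8. All 4 pan-leukocyte markers (Ptprc, Cd53, Coro1a and Laptm5) were above the bound in all samples. Of 15 haematopoietic stem cell markers on the arrays, 9 to 11 were above it in CD49+ samples and 14 to 15 in CD49- samples, and Slamf1 and Fgd5 were above it in the 3 CD49- samples and in 0 CD49+ samples. The mean share of all probe sets above the bound was lower in CD49+ samples too. It was 47.5% against 54.3% on MOE430A and 18.3% against 25.7% on MOE430B. Summed signals of the stem cell markers on MOE430A overlapped between the sorts, with the highest sum, 91188, in CD49+ replicate 1. Of 7 T cell markers on the arrays, 4 were above the bound in at least 1 sample, Cd8a in all 6, and Cd3e, Cd8b1 and Cd5 in none. Of 7 B cell markers, 4 were above it in at least 1 sample, Cd79b and Igll1 in all 6, and Ms4a1, Pax5 and Vpreb1 in none. Of 16 granulocyte and monocyte markers, 13 were above it in at least 1 sample, Prtn3, S100a8, Lyz2 and Csf1r in all 6, and Ngp, Camp and Ltf in none.

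Many integrin probe sets were dim, as were many of all probe sets. Of 138 member signals, 59 lay above the bound. On MOE430A these were 7 to 10 of 19 probe sets per array, where 39.5% to 61.1% of all probe sets lay above it. On MOE430B they were 1 to 2 of 4, where 16.5% to 28.6% of all probe sets did. Itgb1, Itgb5, Itgb7, Itgal and Itgav each had 1 probe set above it in all 6 samples. Itgb2 was above it in 5 samples, Itgam in 2, Itgae in 1 and Itgax in 0. Of the 23 probe sets, the 10 whose mean reached the median of their design were tested. They came from 7 genes, and those of Itgam and Itgax were not among them. Across these 10 the limma test called 0 probe sets in the CD49 comparison, where 0% of all probe sets were called on either design. It called 0 in the comparison of submissions too, where 7.42% were called on MOE430A and 0.4% on MOE430B.

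**Figure D1:**
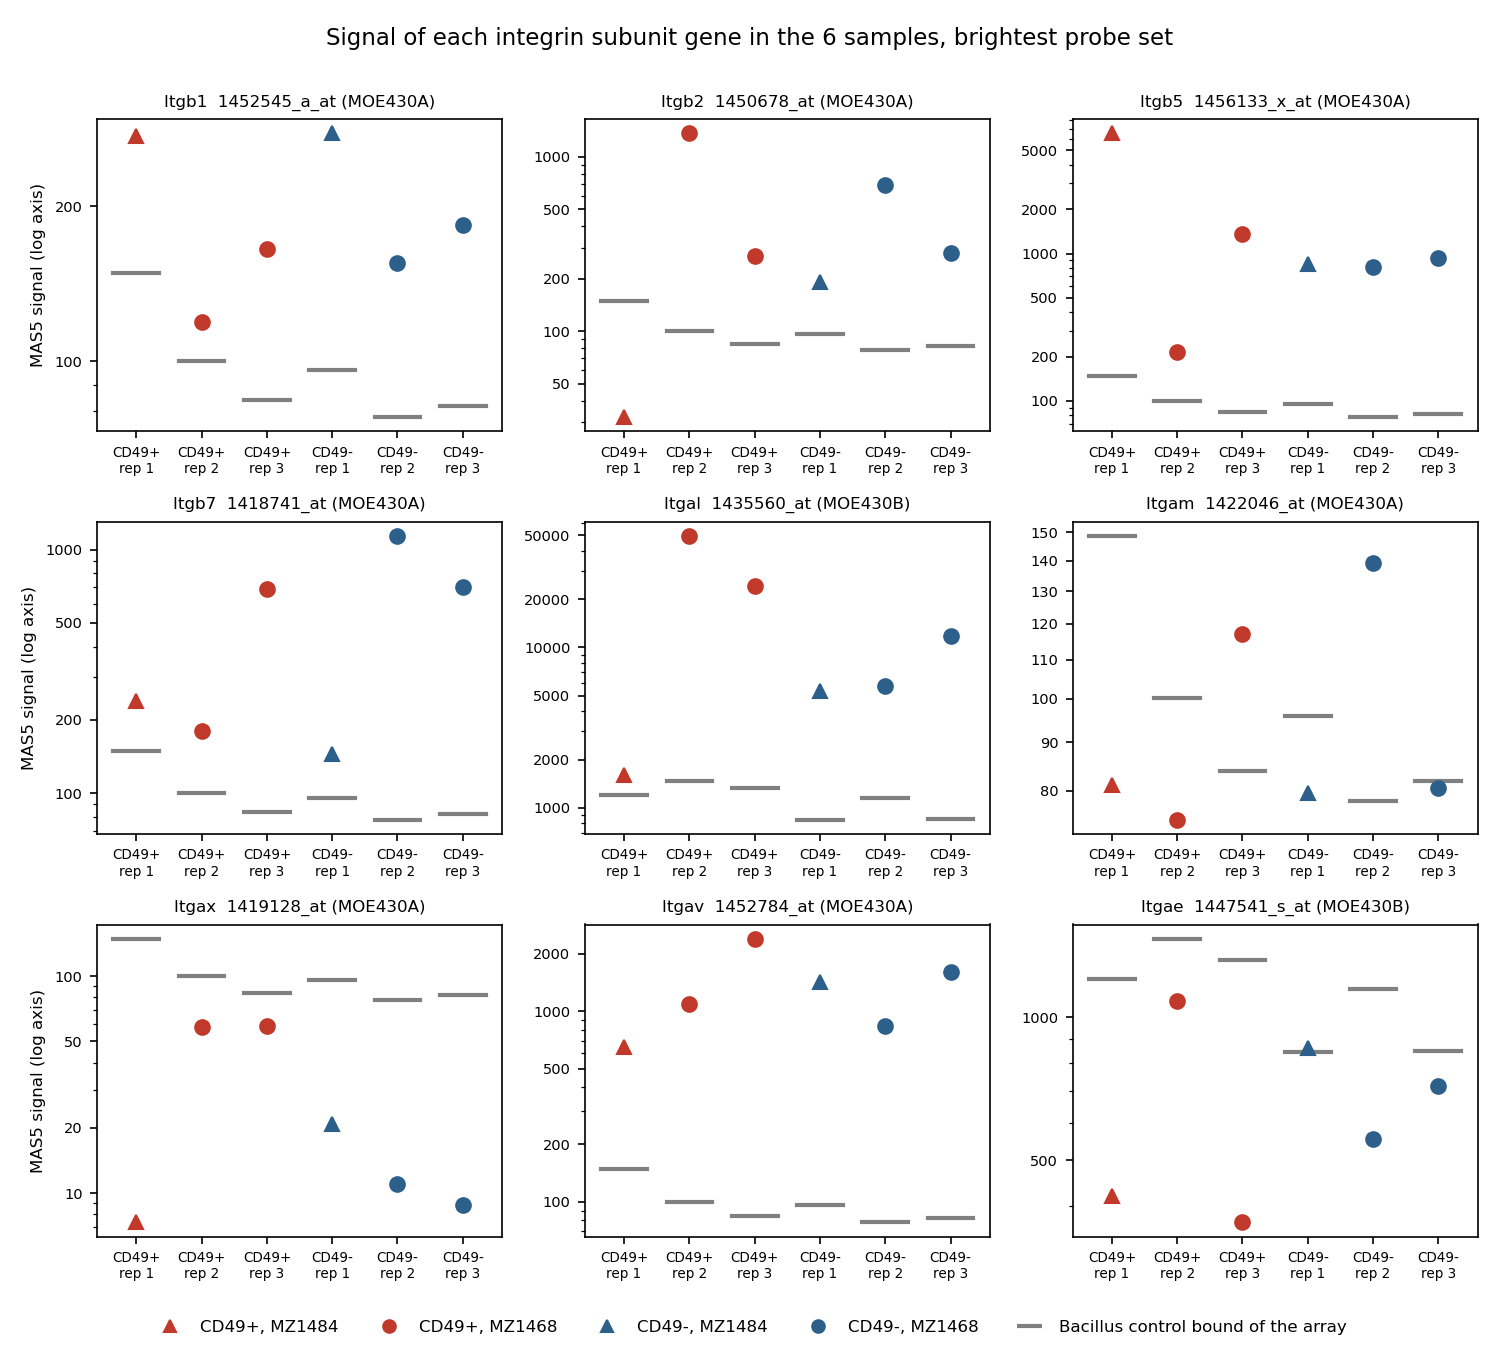
MAS5 signals (log axis, with a scale of its own in each panel) of the brightest probe set of each of the 9 genes in the 3 CD49+ samples (left) and the 3 CD49- samples (right), with triangles for MZ1484 and circles for MZ1468. The grey bar is the highest Bacillus control signal of that array, above which Itgb1, Itgb5, Itgb7, Itgal and Itgav lie in all 6 samples and Itgax in 0.

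Of the LFA-1 subunits, Itgal was above the bound in all 6 samples and Itgb2 in 5. Itgal, the alpha subunit, gave 1603, 49546 and 24177 signal units in CD49+ replicates 1, 2 and 3, against 5364, 5725 and 11837 in CD49- replicates 1, 2 and 3 (probe set 1435560_at on MOE430B). The CD49+ samples thus held both the lowest and the highest signals, and the groups overlapped. On the log2 scale, where a pseudocount is added to the signals first, CD49+ samples averaged 13.65 ± 2.55 and CD49- samples 12.83 ± 0.62 (SD, n = 3 each). The difference was 0.82 ± 1.37 (SE), with a 95% interval of -2.45 to 4.08 and a limma adjusted p of 1.00. It was -1.66 within MZ1484 and 2.05 within MZ1468.

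Itgb2, the beta subunit of LFA-1, Mac-1 and CD11c integrins, gave 32.3, 1367 and 269 signal units in CD49+ samples, against 192, 688 and 282 in CD49- samples. CD49+ replicate 1 lay below its bound, and CD49+ replicate 2 was the brightest sample. The difference between CD49+ and CD49- was -0.33 ± 1.25 (SE) on the log2 scale, with a 95% interval of -3.25 to 2.59 (limma adjusted p = 1.00). It was -1.88 within MZ1484 and 0.45 within MZ1468. For Itgb2 and Itgal probe set 1435560_at, the sign within MZ1484 was thus the opposite of that within MZ1468.

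On these probe sets both LFA-1 subunits were lower in the MZ1484 samples than in every MZ1468 sample. A second, dim Itgal probe set, given below, had the reverse order. Itgal had 1603 and 5364 signal units in the MZ1484 samples, lower than the 5725 to 49546 of the 4 MZ1468 samples. Itgb2 likewise had 32.3 and 192 in MZ1484 samples, lower than the 269 to 1367 in MZ1468 samples. With the CD49 group in the model, Itgal differed by -2.46 ± 1.06 (SE, 95% interval -5.07 to 0.15, limma adjusted p = 0.36) and Itgb2 by -2.27 ± 0.98 (95% interval -4.65 to 0.11, limma adjusted p = 0.20) between MZ1484 and MZ1468 samples on the log2 scale. Neither difference passed the threshold of 0.05. For Itgal it was -4.32 within CD49+ and -0.61 within CD49- samples, and for Itgb2 -3.44 and -1.10. Such separation was common, since 14.5% of tested probe sets on MOE430B and 23.6% on MOE430A were lower in both MZ1484 samples than in every MZ1468 sample. The submissions were scanned on different days (2 scan days on each design, 0 shared), so that submission and scan day cannot be told apart. On MOE430A, which carries the Itgb2 probe set, the Actb 3′ to 5′ ratio was 7.48 and 2.63 in the MZ1484 samples, lower than the 8.83 to 19.8 of the MZ1468 samples. The share of probe sets above the bound there was lower as well, 39.5% and 46.9% in MZ1484 samples against 49.7% to 61.1% in MZ1468 samples. On MOE430B, which carries the brighter Itgal probe set, both measures overlapped between submissions, with Actb ratios of 11.7 and 3.26 against 6.52 to 14.7. Their part in the LFA-1 values was not tested.

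Summed signals of several marker lists also separated the submissions, while the numbers of their genes above the bound overlapped in every list. Among single tested probe sets on MOE430A, 13.8% were higher and 23.6% lower in both MZ1484 samples than in every MZ1468 sample. Summed over the probe sets of a list on MOE430A, the pan-leukocyte markers gave 23950 and 28275 signal units in the MZ1484 samples, against 36462 to 56041 in the MZ1468 samples. Granulocyte and monocyte markers went the other way, with 62086 and 37278 in MZ1484 samples and 8698 to 18299 in MZ1468 samples. Of their 16 genes, 7 and 8 were above the bound in MZ1484 samples, against 6 to 8 in MZ1468 samples. Dendritic cell markers summed to 27927 and 17471 in MZ1484 samples and to 4694 to 6051 in MZ1468 samples. Of the 7 on the arrays, H2-Ab1, H2-Aa and Flt3 were above the bound in all 6 samples. Siglech was above it in 1 sample, Xcr1 in 2, and Zbtb46 and Cd209a in none. The share of each gene in the sum was not computed. Sums in the MZ1484 samples also lay above all of MZ1468 for haematopoietic stem cell markers (91188 and 59952 against 27244 to 34842) and for megakaryocyte and platelet markers (9285 and 7879 against 2035 to 4850). The same held for stromal and endothelial markers (1204 and 2997 against 568 to 779) and, by a small margin, for T cell markers (782 and 674 against 351 to 656). The sums of B cell, natural killer cell, mast cell and basophil, and erythroid markers overlapped between submissions. These sums do not count cells of a type. Their part in the LFA-1 values was not tested either, and in such bulk samples fewer cells of a type and less RNA per cell cannot be told apart.

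The remaining Itgb2 partners were dim. Itgam, the alpha subunit of Mac-1 on myeloid and natural killer cells, gave 81.2, 74.6 and 117 signal units in CD49+ samples and 79.5, 139 and 80.5 in CD49- samples. CD49+ replicate 3 and CD49- replicate 2 were above their bound, and the groups overlapped. Itgax, the CD11c alpha subunit best known from dendritic cells, lay between 7.35 and 58.9 and was not above the bound in any sample. The second Itgal probe set, 1425367_at on MOE430A, gave 14.1 to 96.9 and was above the bound in 1 sample. By submission its order was the reverse of that of 1435560_at, with 49.2 and 96.9 in MZ1484 samples against 14.1 to 44.0 in MZ1468 samples. The 2 Itgal probe sets thus disagreed in level and in order by submission.

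Itgb7, the beta subunit of the gut homing integrins, was above the bound in all samples. It gave 239, 181 and 690 signal units in CD49+ samples, against 144, 1138 and 700 in CD49- samples. The difference was -0.62 ± 1.07 (SE) on the log2 scale, with a 95% interval of -3.12 to 1.87 (limma adjusted p = 1.00), and it was 0.63 within MZ1484 and -1.25 within MZ1468. Between submissions it was -1.48 ± 0.88 (SE), with a limma adjusted p of 0.33. The MZ1484 samples overlapped the MZ1468 samples through CD49+ replicate 2.

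Of the alpha partners of Itgb7, Itga4 was bright and Itgae was not. Itgae, whose product is CD103 and binds E-cadherin, gave 420, 1084 and 370 signal units in CD49+ samples, against 862, 556 and 716 in CD49- samples. CD49- replicate 1 was the only sample above its bound, so that CD49+ samples have only an upper limit and no fold is given. The measured log2 difference was -0.26 ± 0.44 (SE, limma adjusted p = 1.00). A second Itgae probe set, on MOE430A, stayed between 16.1 and 70.4, at or below the bound in all samples.

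Itga4, which pairs with Itgb7 or Itgb1, gave 2820, 5077 and 21925 signal units in CD49+ samples, against 1634, 19710 and 11682 in CD49- samples. The log2 difference between CD49+ and CD49- samples was -0.10 ± 1.27 (SE, limma adjusted p = 1.00). Its 2 MZ1484 samples were the lowest of the 6, as was so for 14.5% of tested probe sets on its design, MOE430B. The difference between MZ1484 and MZ1468 samples was -2.48 ± 0.88 (SE, limma adjusted p = 0.28).

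Itgb1 carries every CD49 alpha subunit to the surface, and its transcript did not separate the sorted groups. The brightest of its 6 probe sets, 1452545_a_at, gave 274, 119 and 165 signal units in CD49+ samples, against 277, 155 and 184 in CD49- samples. All 6 lay above the bound, and the groups overlapped. The log2 difference was -0.15 ± 0.61 (SE), with a 95% interval of -1.58 to 1.27 (limma adjusted p = 1.00). Within MZ1484 it was -0.01 and within MZ1468 -0.22. With quantile normalization the sign turned (0.12).

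Between submissions the order of Itgb1 was the reverse of that of Itgb2 and of the brighter Itgal probe set. The MZ1484 samples, with 274 and 277 signal units, were higher than the MZ1468 samples, with 119 to 184. The difference was 0.74 ± 0.53 (SE, 95% interval -0.55 to 2.03, limma adjusted p = 0.41), and 13.8% of probe sets on MOE430A were likewise higher in both MZ1484 samples. The other 5 Itgb1 probe sets gave 2.04 to 154 signal units and were above the bound in at most 1 sample each, 2 of them in none, so that the Itgb1 values rest on 1 probe set.

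The alpha subunits named CD49 did not separate the groups past the test either. Itga6, the laminin receptor subunit CD49f, gave 1253, 2032 and 5506 signal units in CD49+ samples, against 895, 4680 and 4972 in CD49- samples, a log2 difference of -0.19 ± 1.04 (SE). Both MZ1484 samples were lower than the 4 MZ1468 samples (-1.90 ± 0.73, SE, limma adjusted p = 0.17), as was so for 23.6% of tested probe sets on MOE430A. Itga3 (0.83 ± 0.71), Itga5, the fibronectin receptor subunit (-1.21 ± 1.11), and Itga1 (-0.80 ± 0.54) had limma adjusted p-values of 1.00 each between CD49+ and CD49- samples (SE). Itga1 was above the bound in 1 of the CD49- samples only, and Itga2, a collagen receptor subunit, was too dim to be tested. Itga3 was higher in all 3 CD49+ samples (520, 341 and 326 signal units) than in the CD49- samples (137, 260 and 239), as were 2.79% of tested probe sets on MOE430A.

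Among the tested probe sets, 1417533_a_at of Itgb5 had the widest spread, with an SD of 2.70 log2 units over the 6 samples. The Itgb5 product forms a vitronectin receptor with Itgav. Probe set 1456133_x_at gave 6549, 213 and 1362 signal units in CD49+ samples, against 846, 816 and 927 in CD49- samples. CD49+ replicates 1 and 2 were the highest and the lowest of all 6 samples, while the 3 CD49- samples lay close together. On the log2 scale CD49+ samples averaged 10.34 ± 2.39 and CD49- samples 9.80 ± 0.09 (SD, n = 3 each). They differed by 0.55 ± 1.36 (SE, 95% interval -2.64 to 3.73, limma adjusted p = 1.00).

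The other 3 Itgb5 probe sets showed the same peak in CD49+ replicate 1. Probe set 1456195_x_at gave 3958, 27.2 and 686 in CD49+ samples, against 417, 333 and 472 in CD49- samples. Probe set 1417533_a_at gave 6130, 10.9 and 373 in CD49+ samples, against 17.7, 376 and 474 in CD49- samples. Probe set 1417534_at gave 1834, 22.1 and 142 in CD49+ samples, against 13.6, 294 and 90.8 in CD49- samples. Affymetrix gives the ending _x_at to probe sets whose probes may also match other transcripts. CD49- replicate 1 was the point where they parted, well above the bound on the first 2 probe sets and under it on the last 2. Across the 6 samples the 4 probe sets correlated with each other at 0.79 to 0.99 (Pearson's r of log2 values, as a description, n = 6 samples that share their arrays).

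The sort difference of Itgb5 depended on single samples. For 1417533_a_at it was 7.11 within MZ1484 and -1.87 within MZ1468, and for 1417534_at 5.52 and -1.10. For 1456133_x_at it was 2.91 within MZ1484 and -0.64 within MZ1468, and for 1456195_x_at 3.17 and -1.11. All 4 thus were higher in the CD49+ sample of MZ1484 and lower on average in the CD49+ samples of MZ1468. A test of this change of the CD49 difference between submissions gave 8.97 ± 2.19 (SE, limma adjusted p = 0.11) for 1417533_a_at and 6.61 ± 1.58 (limma adjusted p = 0.10) for 1417534_at. Neither passed. Without CD49+ replicate 1, the CD49 difference of 1456133_x_at was -0.62, that of 1456195_x_at -1.13 and that of 1417533_a_at -0.76, and 1417534_at fell under the filter. Without CD49+ replicate 2, the differences were larger, 2.91 for 1417533_a_at, 2.28 for 1417534_at, 1.77 for 1456133_x_at and 1.97 for 1456195_x_at. Without CD49- replicate 1, the difference of 1417533_a_at was 0.014 and that of 1417534_at 0.36.

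**Figure D2:**
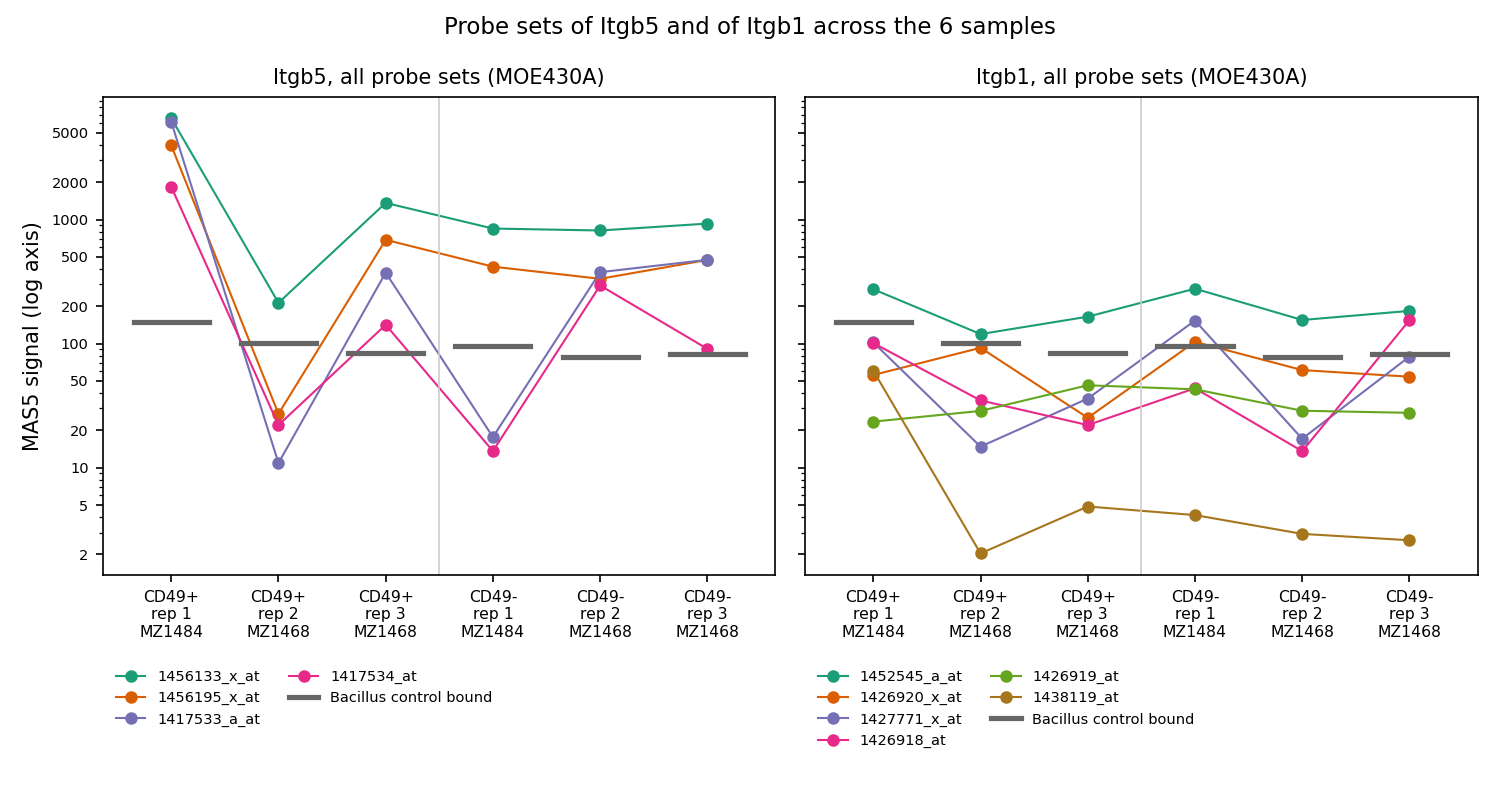
MAS5 signals (log axis) of the 4 probe sets of Itgb5 and the 6 of Itgb1 on MOE430A in the 3 CD49+ samples (left of the thin line) and the 3 CD49- samples (right), with the Bacillus control bound of each array as a dark bar. All 4 Itgb5 probe sets peak in CD49+ replicate 1 (1834 to 6549), while 1 Itgb1 probe set lies above the bound throughout.

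Itgav, the alpha partner of Itgb5, did not share this profile. It gave 646, 1088 and 2400 signal units in CD49+ samples, against 1425, 836 and 1612 in CD49- samples (probe set 1452784_at), all above the bound. CD49+ replicate 1, the brightest sample for Itgb5, was the dimmest for Itgav. The log2 difference was -0.06 ± 1.00 (SE, 95% interval -2.40 to 2.28, limma adjusted p = 1.00) between CD49+ and CD49- samples and -0.50 ± 0.86 (limma adjusted p = 0.74) between MZ1484 and MZ1468 samples. Both signs turned with quantile normalization (0.34 and 0.50). The other 4 Itgav probe sets were dim, 2 of them at or below the bound in all samples.

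Itgb3, which pairs with Itgav or, on platelets, with Itga2b, was lowest in CD49+ replicate 1 as well. It gave 161, 5249 and 12910 signal units in CD49+ samples, against 42558, 7404 and 17999 in CD49- samples. The log2 difference was -2.70 ± 1.56 (SE, limma adjusted p = 1.00) over all samples. Leaving out CD49+ replicate 1 gave -1.10. The MZ1484 samples alone differed by -7.15, and the MZ1468 samples by -0.48. Itga2b, CD41 of megakaryocytes and early progenitors, was above the bound in all CD49- samples and in no CD49+ sample, where CD49+ samples averaged 6.18 ± 0.24 and CD49- samples 8.71 ± 1.02 on the log2 scale (SD, n = 3 each). The groups did not overlap, as was so in this direction for 4.13% of tested probe sets on MOE430A. As a lower limit it was at least 3.59-fold lower in CD49+ samples, but it did not pass (limma adjusted p = 1.00). Here a fold called "at least" sets the brighter group against the bound, or the gene's own signal where that was higher, on each array of the dimmer group.

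Over the 10 tested probe sets, 5 were higher and 5 lower in CD49+ samples, with a median log2 difference of 0.13, against a median of -0.07 over all tested probe sets on MOE430A and 0.03 on MOE430B. None of the 10 had an unadjusted limma p under 0.05, against 2.4% and 3.68% of all tested probe sets, and none separated the groups, against 6.92% and 9.26%. The smallest unadjusted p was 0.447 (Itgb5, 1417534_at). The intervals were wide, between 2.11 and 8.84 log2 units from end to end, so that differences of several fold in either direction lie within them.

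Between MZ1484 and MZ1468 samples, 5 of the 10 were higher and 5 lower in MZ1484, with a median of 0.34, against -0.43 over all probe sets on MOE430A and -0.06 on MOE430B. None had an unadjusted limma p under 0.05, against 26.5% and 14.9% of all tested probe sets. Itgb1 was higher, and Itgb2 and Itgal lower, in both MZ1484 samples than in every MZ1468 sample. On MOE430A 39.8% of all tested probe sets were higher in MZ1484, 46.3% after centring each array on its median and 49.9% after quantile normalization. The median over all probe sets then moved to -0.16 with centring and to -0.00 with quantile normalization. Measured from the median of its design as deposited, Itgb2 lay at -1.84, Itgb7 at -1.06, Itgal at -2.41 and Itgb1 at 1.17.

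**Figure D3:**
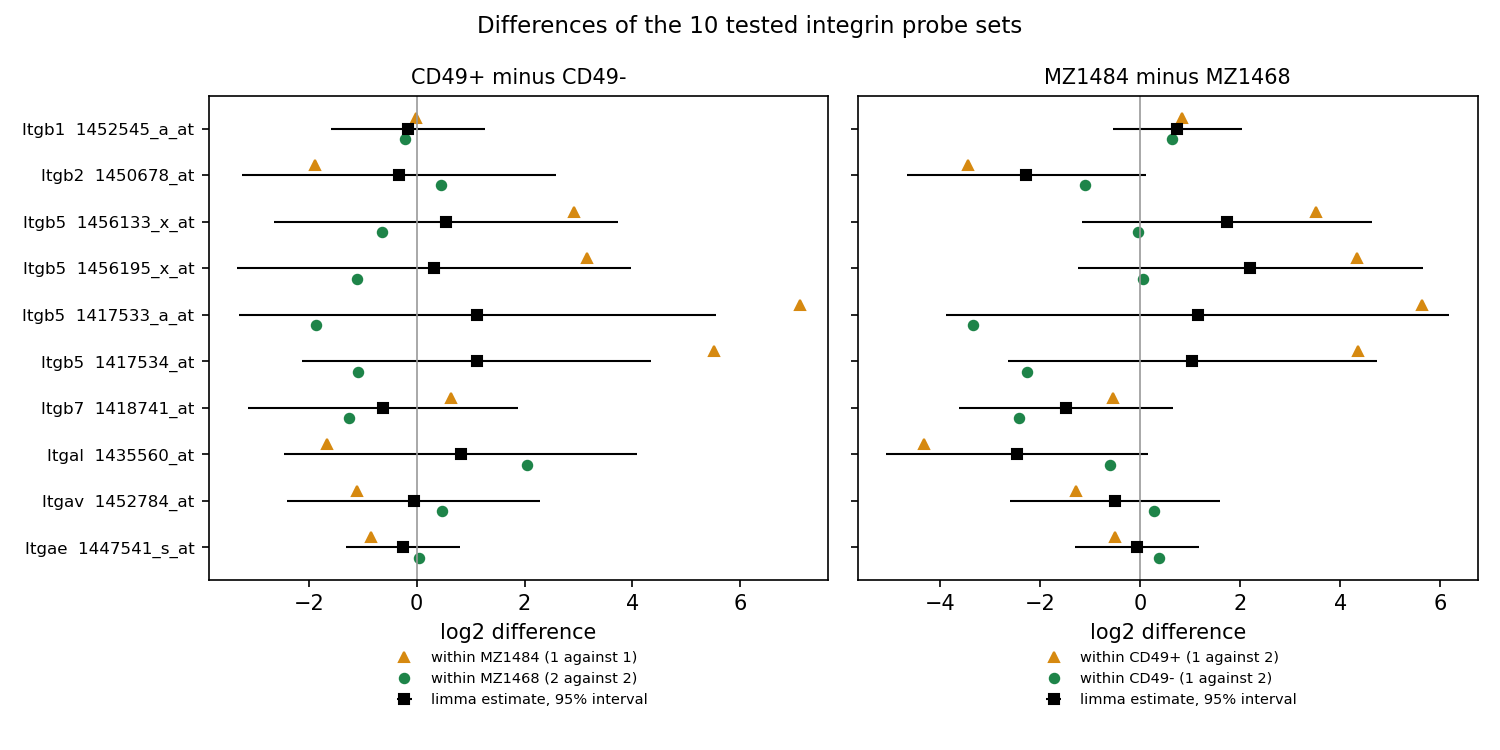
Log2 differences of the 10 tested probe sets, CD49+ minus CD49- (left) and MZ1484 minus MZ1468 (right), as the limma estimate with its 95% interval (black) and within the strata named in the legends (coloured). Every interval includes 0, and the within-submission CD49 values of Itgb5 lie on opposite sides of 0.

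Genes that switch integrins on or tie them to the cytoskeleton did not pass the test between the sorts. Of 38 listed activation and adaptor genes, 30 were tested, 19 were higher and 11 lower in CD49+ samples, and 0 passed the limma test (0 with an unadjusted p under 0.05). Their median log2 difference was 0.18, against -0.04 over all 12019 genes. Ilk, the integrin-linked kinase, differed by 1.14 ± 0.73, Skap1, an adaptor of LFA-1 activation in T cells, by 0.64 ± 0.44, and Pxn, paxillin, by -1.94 ± 0.85 (SE, limma adjusted p = 1.00 each).

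Of the 30 tested genes of the same list, 1 passed between submissions. Of all tested probe sets, 7.42% passed there on MOE430A and 0.4% on MOE430B. Itgb1bp1, the cytoplasmic protein ICAP-1 that binds the beta 1 tail, gave 195 and 488 signal units in MZ1484 samples, against 3817 to 12256 in MZ1468 samples. It fell by 4.10 on the log2 scale (SE 0.77, limma adjusted p = 0.0346), and by similar amounts within CD49+ (-4.40) and CD49- samples (-3.80). The call was lost without any single sample except CD49- replicate 1 (limma adjusted p up to 0.14), and with no filter on low values (0.0535), centring (0.0553) or quantile normalization (0.0575). On MOE430A, the design of Itgb1bp1, 0 of all 11313 tested probe sets were called without CD49+ replicate 3, CD49- replicate 2 or CD49- replicate 3. Of the 30 genes, 18 were higher and 12 lower in MZ1484 samples (median 0.21, against -0.21 over all genes). An unadjusted limma p under 0.05 was found for 4 higher and 2 lower genes of the 30, and for 22.9% of all genes. Stk4, the kinase MST1 of the LFA-1 pathway (0.89 ± 0.19), and Skap2 (1.17 ± 0.27) did not pass (SE, limma adjusted p = 0.11 and 0.14).

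Of 9 tested integrin ligand genes, Icam1 alone passed the test between submissions, as did 7.42% of all tested probe sets on its design, MOE430A. Icam1, a ligand of LFA-1 and Mac-1, gave 17.1 and 82.7 signal units in MZ1484 samples, at or below the bound, against 450, 921, 1904 and 2044 in MZ1468 samples. It was at least 9.43-fold lower in MZ1484 samples (log2 means 6.12 ± 0.93, n = 2, and 10.18 ± 0.99, n = 4, SD; limma adjusted p = 0.0476). The call was lost without any single sample except CD49+ replicate 2 (limma adjusted p up to 0.15), and with 4 other settings (0.0530 to 0.0905). Without CD49+ replicate 3, CD49- replicate 2 or CD49- replicate 3, 0 of all 11313 tested probe sets on MOE430A were called. The MZ1484 samples, then, were lower in Icam1, which passed the test, and in Itgb2 and Itgal probe set 1435560_at, which did not. The dimmer Itgal probe set had the reverse order. Jam3, a ligand of Mac-1, was higher in MZ1484 samples by 3.81 ± 0.94 (SE, limma adjusted p = 0.0639). F11r of the same list was higher there by 1.68 ± 1.01 (SE, limma adjusted p = 0.34).

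**Figure D4:**
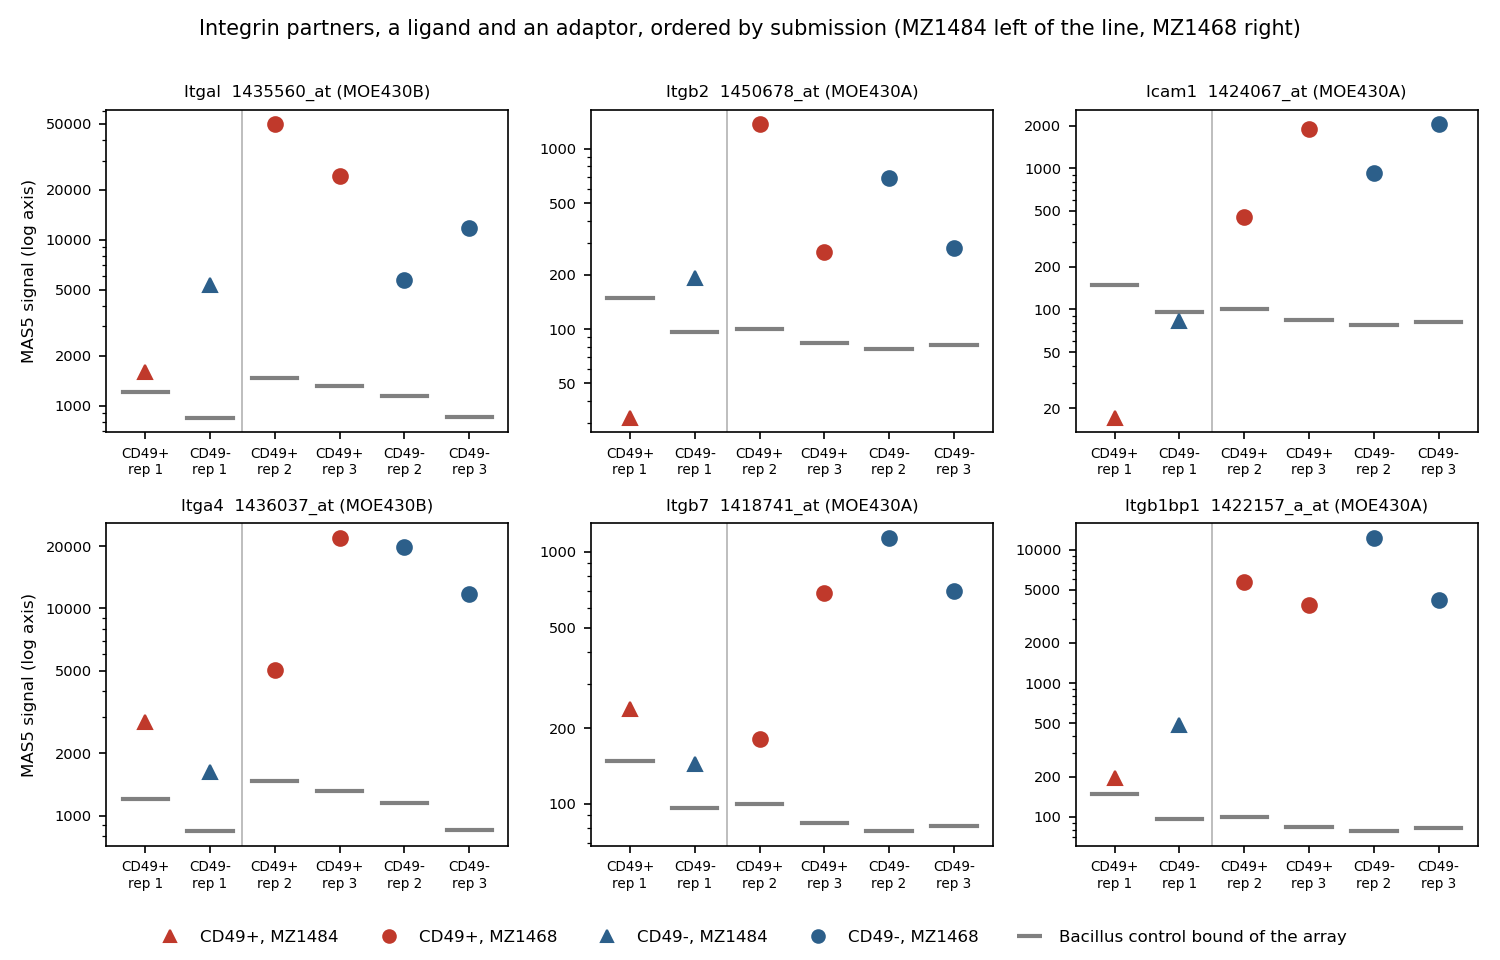
MAS5 signals (log axis, with a scale of its own in each panel) of Itgal, Itgb2, Icam1, Itga4, Itgb7 and Itgb1bp1 in the 2 MZ1484 samples (left of the thin line) and the 4 MZ1468 samples (right), red for CD49+ and blue for CD49-, with the Bacillus control bound of each array in grey. All but Itgb7 lie lower in both MZ1484 samples than in every MZ1468 sample, as do 23.6% of tested probe sets on MOE430A and 14.5% on MOE430B.

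By the sort, Icam2, a ligand of LFA-1 on endothelium and platelets, gave 22.3, 19.8 and 178 signal units in CD49+ samples, against 1971, 4963 and 2027 in CD49- samples. The groups did not overlap, as was so in this direction for 4.13% of tested probe sets on MOE430A. The difference of -5.13 ± 1.00 (SE) on the log2 scale did not pass (limma adjusted p = 1.00, unadjusted p = 0.00117). It was -5.34 within MZ1484 and -5.03 within MZ1468. Of 9 tested ligand genes of 22 listed, 2 were higher and 7 lower in CD49+ samples, with a median of -0.82 against -0.04 over all genes, and 0 passed (2 with an unadjusted p under 0.05, both lower, against 2.96% of all genes with such a p in either direction). Between submissions 6 were higher and 3 lower in MZ1484, and Icam1 alone passed. An unadjusted limma p under 0.05 between submissions was found for 1 higher and 1 lower ligand gene, and for 22.9% of all genes.

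The genes with profiles most like those of the 2 brightest members on MOE430A were searched among 4079 genes above the bound in all 6 samples. For Itgav these were Mrrf (r = 0.97), Dnajc1 (0.96) and Lrrc14 (0.94), and 11 genes had an r over 0.9. For Itgb5 (1456133_x_at) they were Bri3 (0.99), Anapc16 (0.99) and Tor1aip1 (0.99), and 106 genes had an r over 0.9. These are Pearson correlations of log2 values over 6 samples that share arrays and submissions, and describe those arrays only.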

How the data were processed

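Gene expression was measured on Affymetrix MOE430A and MOE430B arrays in 3 CD49+ and 3 CD49- samples. The deposited values were linear intensity signals that the authors made with MAS5, per the submitters' processing notes, and the version is not given in the sources used here. They were used without further scaling and turned into log2 values after a pseudocount was added, 27.0 on MOE430A and 139.8 on MOE430B (the 25th percentile of all signals), which understates differences of dim genes. Probe sets whose mean log2 value reached the design's median were tested (11313 and 11256) with limma 3.58.1 in R 4.3.3 (eBayes with trend), with Benjamini-Hochberg adjustment within a design at 0.05. The CD49 model had no covariate, and the submission model had the CD49 group as a term.

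Symbols came from the platform annotation. Of the probe sets, 20380 on MOE430A and 14661 on MOE430B had 1 symbol, 691 and 245 several, and 1555 and 7605 none. All members were named, with their probe sets given singly or, for dim ones, within a range or a count. Of each gene list those past the threshold were named, filled to 3 per comparison by the smallest p. Itga1 to Itga6 were always named. Each listed gene was represented by its brightest tested probe set. The members and lists were chosen with earlier results of these data known. The number of arrays limits the precision. Replicate numbers follow accession order and serve only as names, and replicate 1 of each group is its MZ1484 sample. Alternatives were other pseudocounts, filters, scalings, variance models and bounds, the submission as a block, and each sample left out.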

Additional observations from a re-analysis of the deposited data

Results flagged for a closer look

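Itgb5 had 1 sample apart from the others of its submission. On probe set 1417533_a_at the gap between CD49+ replicate 2 (10.9 signal units) and the other 3 MZ1468 samples (373 to 474) took 0.913 of the whole range of the log2 values, above the critical value of Dixon's test for 4 samples, which about 1 in 20 groups exceed by chance. Dixon's test was run on each of the 10 tested member probe sets, and no other exceeded the value, the other 3 of Itgb5 included. The share of all probe sets that exceed it was not computed.

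For 3 of the 10 tested probe sets every CD49+ sample of 1 submission lay above every CD49- sample of it. In the other submission every CD49+ sample lay below. In MZ1484, with 1 sample of each sort, such an order always arises. The share of all tested probe sets with this pattern was not computed, so the count is not read as particular to these genes. The CD49 difference in MZ1484 minus that in MZ1468 was 8.97 for Itgb5 (1417533_a_at), 1.89 for Itgb7 (1418741_at) and -3.71 for Itgal (1435560_at) on the log2 scale. The test of that difference gave limma adjusted p-values of 0.11, 0.62 and 0.40. None passed, and MZ1484 held 1 sample of each sort.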

How the results depend on the processing

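No member passed the adjusted threshold in either comparison under any setting tried. Recomputed CD49 differences of the members kept sign and call 120 times and turned sign 21 times, and submission differences 123 and 9 times. For the other named genes these numbers were 177 and 8, and 135 and 6, with 17 calls lost and 4 gained between submissions (Jam3 with centring, quantile normalization and without CD49- replicate 1, and Stk4 among the brightest 25% of probe sets). The scan day as a block was not run, since it is the same split as the submission. The replicate numbers follow accession order and were not used to pair samples. With the submission as a block, 0 members passed between CD49+ and CD49- samples, as without it. The cause of the changes below was not tested.

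The count of members with an unadjusted p under 0.05 was 0 between CD49+ and CD49- samples, and 1 (Itgal) with MZ1468 samples alone. With single samples left out it was 0 to 1 (Itgal, without CD49+ replicate 1). On MOE430B, which carries that Itgal probe set, 622 of all 11256 tested probe sets had such a p with MZ1468 samples alone. Without CD49+ replicate 1 these were 406. Between MZ1484 and MZ1468 samples the count of members was 0 as well. It was 3 with no filter (Itgal, Itgb1 1427771_x_at and Itgav 1432678_at) and 2 with quantile normalization (Itgb1 and Itgb5 1456195_x_at). It was 1 with eBayes without trend (Itgal) and 1 with no CD49 term (Itgb2). With single samples left out it was 0 to 6, with 6 without CD49- replicate 1 (Itgal, Itgb2 and all of Itgb5) and 1 without CD49+ replicate 2 (Itgb7). Over all tested probe sets such a p was common between submissions. Without CD49- replicate 1 it was found for 3559 of 11313 on MOE430A and 1705 of 11256 on MOE430B. These counts were 3184 and 1769 with quantile normalization, and 4003 of 22626 and 2518 of 22511 with no filter. They were 2763 and 1636 with eBayes without trend, 3088 and 1685 with no CD49 term, and 3041 and 1853 without CD49+ replicate 2. Member signals above the bound numbered 59, 61 with the second highest Bacillus signal and 100 with the median Bacillus signal.

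CD49 differences that turned sign with quantile normalization were those of Itga4 (0.0019), Itgav (0.34) and Itgb1 (0.12), and with centring that of Itgav (0.062). With MZ1468 samples alone, those of Itgae (0.034), Itgav (0.47), Itgb2 (0.45) and Itgb5 (1417533_a_at -1.87, 1456133_x_at -0.64, 1456195_x_at -1.11) turned. Submission differences turned with centring for Itga3 (0.19) and Itgae (0.031), and with quantile normalization for Itga3 (0.93), Itgae (0.032) and Itgav (0.50).

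With single samples left out, CD49 differences ranged from -1.13 to 0.61 for Itga4, -0.99 to 0.28 for Itga6, -0.16 to 2.25 for Itgal, -0.55 to 0.37 for Itgav, -0.44 to 0.084 for Itgb1 and -1.46 to 0.82 for Itgb2. For Itgb5 they ranged from -0.76 to 2.91 (1417533_a_at), -0.62 to 1.77 (1456133_x_at) and -1.13 to 1.97 (1456195_x_at). Submission differences ranged from -1.49 to 0.73 for Itga1, -0.75 to 0.60 for Itga3, -0.50 to 0.38 for Itgae, -1.29 to 0.29 for Itgav and -4.80 to 1.87 for Itgb3. For Itgb5 they ranged from -3.33 to 5.64 (1417533_a_at) and -0.039 to 3.51 (1456133_x_at).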
